A study of Mus musculus with 3 samples.

Results

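CLK (CLOCK) binding in the mouse liver was described from all 759 peaks called in the CLK ChIP library against the Input library, out of the 2337 peaks of the CLK and BMAL1 lists together. The members are every peak of the deposited CLK list, and the gene, distance and location of each were taken from the annotation row with the same position. Of the 759 CLK peaks, 211 overlapped a BMAL1 peak by at least 1 bp (CLK:BMAL1 peaks) and 548 did not (CLK only peaks). Chromatin came from formaldehyde cross-linked liver nuclei of adult male C57BL/6 mice, 3 to 6 months old, kept in 12 h light and 12 h dark for 2 weeks or more and killed at ZT8, 8 h after lights on. A library was made with an antibody against CLK, another with an antibody against BMAL1 and a further library from Input chromatin with no antibody, all from the same liver extract. No value below therefore has a replicate, there is no test between conditions, and the other cells of the liver were not separated from hepatocytes. The CLK library held 37371047 mapped tags (reads), and 33057959 tags at distinct positions. The Input held 18846303 and 18206506, so its values are the less precise side of each ratio.

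CLK and BMAL1 are basic helix-loop-helix transcription factors that bind DNA as a pair at a short palindrome, the e-box. Among the genes they switch on are those of their own repressors, the PER and CRY proteins and the REV-ERB receptors, and this negative feedback makes the daily rhythm. In the liver the clock also reaches genes of sugar, amino acid and lipid metabolism. In mouse liver, CLK and BMAL1 are bound to DNA mainly during the day.

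The e-boxes that lay under the strongest CLK peaks are shown first, since they are the sequence element the pair is known to recognise. Each line gives 30 bases of the plus strand of NCBIM37 (mm9) around the CACGTG nearest to the peak summit, which is in capitals. The first 10 belong to the 10 CLK peaks with most tags that hold a CACGTG within 100 bp of the summit. The next 6 belong to the peak with most tags and an e-box in 6 of the gene function lists described later. The summits of the peaks at Gm129 (within C920021L13Rik, which overlaps it), Nr1d1 (except the upstream one), Alas1, Nr1d2, Per1 (the second), Por and Klf15 lay in introns, that at Tef in a UTR, that at Dbp in a non-coding exon, that at Gnmt in a coding exon and the others between genes.
Gm129, chr3:95686572-95686601: gcacgggcgcagCACGTGggagccctcagc
Per1, chr11:68908557-68908586: cgcccccgccctCACGTGgctctatcacta
Nr1d1, intron, chr11:98635161-98635190: acgtccccactcCACGTGtgcccctcgcac
Dbp, chr7:52963070-52963099: acattccctcgcCACGTGagtccgccttcc
Nr1d1, upstream, chr11:98644844-98644873: gagggggtggggCACGTGgccctgcccgag
Tef, chr15:81641472-81641501: ctgctgccgctcCACGTGaccctcggggct
Alas1, chr9:106136609-106136638: cacaaaaatctgCACGTGaatgctcacccc
AK019124, chr19:23210240-23210269: gggaggcgcgctCACGTGgagcgtgcgagc
Nr1d2, chr14:19071072-19071101: gccccgcggcctCACGTGtctccgcccgcc
Per1, intron, chr11:68912273-68912302: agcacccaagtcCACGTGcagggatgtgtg
Pfkfb3, chr2:11457160-11457189: agcacagacgggCACGTGaactcagcgtgc
Gnmt, chr17:46866001-46866030: acagctgccacaCACGTGcggcctccccat
Dgat2, chr7:106331543-106331572: agggagtttgagCACGTGcgggacgatccg
Apoa5, chr9:46076597-46076626: tctttgaccctcCACGTGgtgtttgctcag
Por, chr5:136150837-136150866: acgtttgtggtcCACGTGctgttaggccaa
Klf15, chr6:90413744-90413773: ctctggctacgcCACGTGctgctgtttttc

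Of the 11 CLK peaks at clock genes that had no CACGTG near the summit 3 held the variant CACGTT, which differs in its last base and is known as the E′-box. These 3 are shown with the variant, or its reverse complement AACGTG, in capitals. The Nr1d1 summit lay in a UTR and the other 2 between genes.
Nr1d1, start site, chr11:98636702-98636731: tccagcagccggCACGTTgagatctgtgcg
Bhlhe41, chr6:145814820-145814849: gtgtggcgagccCACGTTtactactggcac
Wee1, chr7:117265118-117265147: ccgcgactatagAACGTGactggacacagc

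Most CLK peaks were small. The median peak held 23 tags (95% interval of the median 23 to 25) over 390 bp (382 to 410), and the middle 50% of peaks held 20 to 35 tags. All 759 peaks together covered 342479 bp and held 25520 tags, 0.0772% of the tags at distinct positions, so nearly all tags of the CLK library lay outside peaks. The median density was 61.7 tags per kb of peak, 3.53 times the genome-wide mean of 17.5 tags per kb. Over local Input the peak caller gave the median peak a fold of 6.35, in a range of 3.17 to 24.02.

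The tags were concentrated in few peaks. The peak with most tags, at Axin2, held 1.90% of all tags in CLK peaks, the 10 peaks with most tags held 10.2%, and the 100 with most held 35.1%. At the other end, the peaks with fewest tags held 16. Chromosome 11 had the highest density of peaks (42.7 per 100 Mb) followed by chromosome 2 (40.2), and the X chromosome, of which male mice carry a single copy, had 2.40 per 100 Mb (4 peaks). The part of copy number in this low density was not tested.

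The CLK peaks with most tags lay at liver metabolic and plasma protein genes, at clock genes and at loci of neither kind. The metabolic enzyme genes included Pck1, which makes the gluconeogenic enzyme PEPCK (477 tags, exact 95% Poisson interval 435 to 522), and Tat, the tyrosine aminotransferase (231, 202 to 263). Apoa1, the main protein of HDL, had 200 tags (173 to 230) and Trf, the plasma iron carrier transferrin, 173 (148.2 to 200.8). The clock repressor genes were Gm129, also named Ciart (206 tags, 179 to 236), and Per1 (171, 146.3 to 198.6). Loci of neither kind were Axin2 (485 tags), Cdk8 (266), the cDNA AK138323 (205), Pxmp3 (184) and the cDNA AK197973 (183). The summit of this last peak lay in an exon of Neat1, a long nuclear RNA, in the GENCODE M1 annotation.

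Fold enrichment ordered the peaks differently. Pck1 (5.61-fold), Apoa1 (5.17-fold), Trf (5.34-fold) and AK197973 (4.28-fold) lay below the median fold of all peaks, whereas Tat (7.76-fold), Gm129 (12.2-fold) and Per1 (14.5-fold) lay in the highest of 4 rank groups of fold. The highest fold in the list was that of the intronic Nr1d1 peak, at the gene of the repressor REV-ERBα (24.02-fold, 138 tags, chr11:98634888-98635752). The next, chosen for naming after their values were seen, were intronic in Snx9 (17.9-fold, 68 tags), upstream of the choline kinase gene Chka (17.4-fold, 72 tags), upstream of Dcun1d4 (16.7-fold, 71 tags), and at Upp2, a uridine phosphorylase (15.3-fold, 47 tags). All 10 peaks with the highest fold overlapped a BMAL1 peak. CLK fold and BMAL1 peaks were both called against the same Input library, so they are not independent. Of all 759 peaks, 40 (5.27%) reached a fold of 10. Across the 759 peaks, which come from 1 CLK library and 1 Input, tags followed width (Spearman's rho 0.91) and hardly followed fold (rho 0.09).

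**Figure D1:**
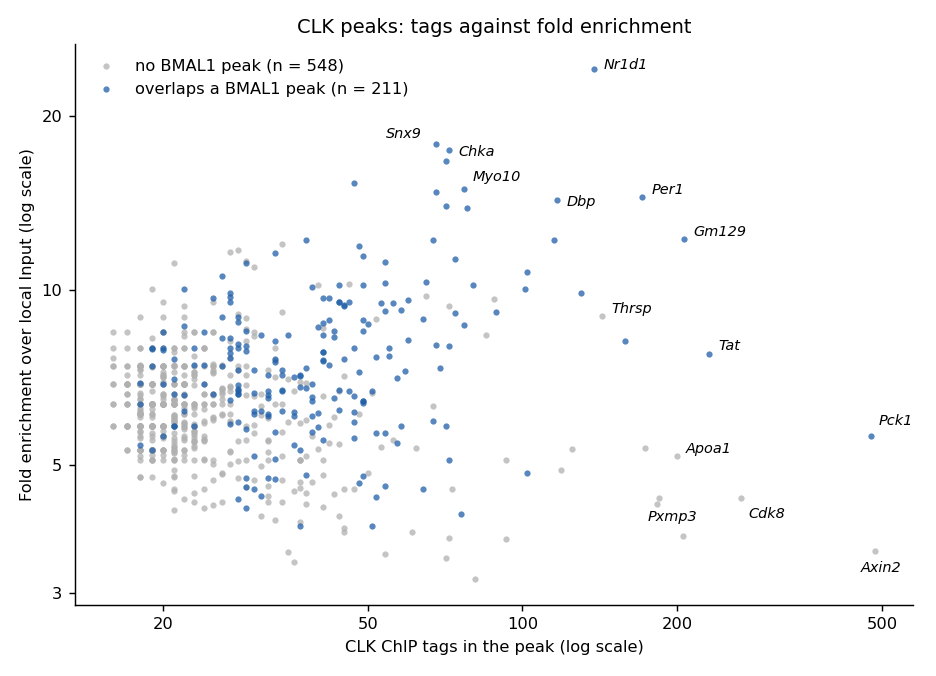
CLK tags per peak (horizontal axis, log scale) against fold enrichment over local Input (vertical axis, log scale) for the 759 CLK peaks, 1 point per peak, blue where a BMAL1 peak overlaps. Nr1d1, Snx9, Chka and other peaks of high fold are blue, and the peaks with most tags split between blue points (Pck1, Tat, Gm129, Per1) and grey points of low fold (Axin2, Cdk8, Apoa1, Pxmp3).

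The peaks were split by tags into 4 rank groups of 189 or 190. The group with most tags (35 to 485) and the group with fewest (16 to 20) had intervals that did not overlap for the BMAL1 peak, the e-box and the start site. A BMAL1 peak overlapped 64.0% of the top group (exact 95% Clopper-Pearson interval 56.7 to 70.9%, n = 189) and 4.21% of the bottom group (1.84 to 8.13%, n = 190). An e-box lay within 100 bp of the summit in 42.9% (35.7 to 50.2%) and 9.47% (5.71 to 14.6%). The peak was within 1 kb of a start site in 31.2% (24.7 to 38.4%) and 5.26% (2.55 to 9.47%). The median GC content of the 201 bases around the summit was 57.2% in the top and 49.3% in the bottom group. The share inside genes differed less, 48.7% (41.4 to 56.0%) against 39.0% (32.0 to 46.3%), and these intervals overlap. These intervals, and the Poisson intervals of tags, hold counting error alone, because copies made by PCR are not separate molecules and no library was repeated.

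Among the 189 peaks with most tags, those of high and of low fold differed in the BMAL1 and e-box shares. The 78 that were also in the highest of 4 rank groups of fold overlapped a BMAL1 peak in 88.5% of cases (79.2 to 94.6%) and held an e-box in 57.7% (46.0 to 68.8%). The 62 that were in the lowest group of fold did so in 25.8% (15.5 to 38.5%) for both features, although they were wider (median 639 against 561 bp). The part of the shared Input library in the BMAL1 shares by fold was not tested. Within 1 kb of a start site lay 29.5% (19.7 to 40.9%) of the first and 32.3% (20.9 to 45.3%) of the second set, with overlapping intervals. The first set held 18 peaks at genes of the clock lists and 6 at genes of the plasma protein, glucose and amino acid lists. The second held 3 and 17.

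**Figure D2:**
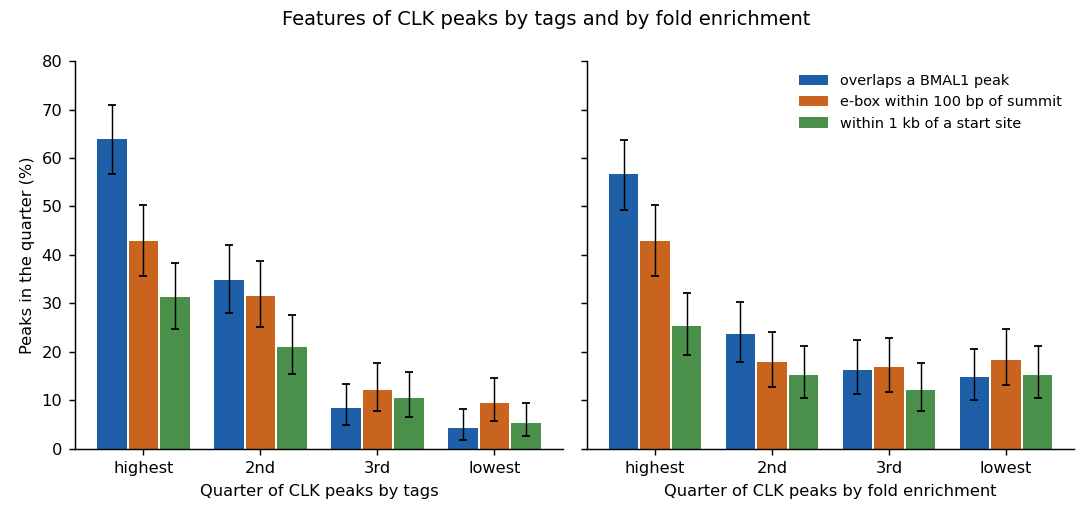
Share of CLK peaks (vertical axis, %) that overlap a BMAL1 peak, hold an e-box within 100 bp of the summit or lie within 1 kb of a start site, by rank group of tags (left) and of fold (right), with exact 95% intervals as error bars. By tags the BMAL1 share steps from 64.0% through 34.7% and 8.42% to 4.21%, and by fold it is 56.6% in the highest group and 14.7% in the lowest.

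In 5 peaks the tag density over the genome mean was more than 3 times the fold that the caller gave over local Input, a property noticed in the values. These are unlike measures, since the median peak had 3.53 times the genome mean by density and a fold of 6.35. They were assigned to Axin2 (563 tags per kb, 32.2 times the genome mean, 3.55-fold over local Input), Pxmp3 (533 tags per kb, 4.38-fold), Cdk8 (353, 4.38-fold), Mc2r (292, 3.82-fold) and AK138323 (272, 3.76-fold). These sites thus had a low fold for their tag density, and the local Input background itself was not read here. These 5 peaks held 1201 tags, and none of them overlapped a BMAL1 peak or held an e-box within 100 bp of the summit. The Pxmp3 and Mc2r peaks lay 284599 and 262872 bp from the start site of their assigned gene, and the Axin2 peak 68237 bp, so the gene name is only the nearest gene.

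The widest CLK peak covered 3505 bp at Pck1 (chr2:172978383-172981887), from the start site into the gene. Apoa1 (2460 bp), AK197973 (2306 bp), Trf (2246 bp) and Tat (1942 bp) followed. All 5 centres lay 154 to 1562 bp downstream of the start site. None of the 5 held an e-box within 100 bp of the summit, and those at Pck1 and Tat overlapped a BMAL1 peak. By contrast, the peaks of similar tag number at Gm129 and Per1 were 1251 and 919 bp wide.

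The 759 peaks were assigned to 686 genes, 109 of them named only by a cDNA accession or transcript identifier. One peak was assigned to each of 635 genes, and 51 genes (7.43%, 5.59 to 9.66%) had 2 or more. Of all 22238 coding genes 535 had at least 1 CLK peak and 47 (0.211%) had 2 or more. This share counts genes without a peak as well, unlike the 7.43%. These 51 genes took 16.3% of peaks and 23.8% of tags. Their median number of tags per gene was 68, against 23 for genes with 1 peak. Peaks within 10 kb of a neighbour formed 23 clusters of 67 peaks, and their median was 44 tags against 23 for the peaks that stood alone.

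Alb, which encodes serum albumin, the most abundant plasma protein, had the most CLK peaks. Its 10 peaks lay over 17372 bp (chr5:90889818-90907189), from 81 bp to 17089 bp downstream of the start site, 7 of them inside the gene. They held 19 to 71 tags each, 345 in all, at a fold of 4.84 to 8.50, and their densities were alike (54.4 to 74.9 tags per kb). Of the 10 peaks 3 overlapped a BMAL1 peak and none held an e-box within 100 bp of the summit. Tat had 5 peaks over 10113 bp (407 tags) and Pck1 4 peaks over 7703 bp (743 tags), in both genes with the largest at the start site and the rest through and beyond the gene. Tat and Pck1 had no e-box within 100 bp of any summit either, although both peaks of Pck1 that overlapped a BMAL1 peak held a CACGTG elsewhere in the peak.

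The clock genes with several peaks had another arrangement. Nr1d1 had 115 tags 8215 bp upstream of the start site, 130 tags 124 bp upstream, 138 tags 1236 bp downstream and 41 tags 2172 bp downstream. All 4 overlapped a BMAL1 peak, and all but the peak at the start site held an e-box within 100 bp of the summit. Dbp, an output transcription factor of the clock, had peaks 284 bp upstream (101 tags), 783 bp downstream (74 tags) and 2652 bp downstream (117 tags), with an e-box in the last. Per1 had 171 tags 227 bp upstream, 31 tags 2478 bp downstream and 78 tags 3501 bp downstream, and all 3 peaks held an e-box. Bhlhe41, the repressor DEC2, had 3 peaks of 26 to 49 tags. Errfi1, an inhibitor of EGF receptor signalling, had 3 peaks with 288 tags, none of which overlapped a BMAL1 peak or held an e-box. The remaining 2 of the 10 genes with most peaks were the transcript uc007ktq.1, inside Tex14 (3 peaks, 111 tags), and Pibf1 (3 peaks, 58 tags), again with no BMAL1 peak and no e-box within 100 bp. Auts2 also had 3 peaks and ranked after Pibf1 by its 55 tags.

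**Figure D3:**
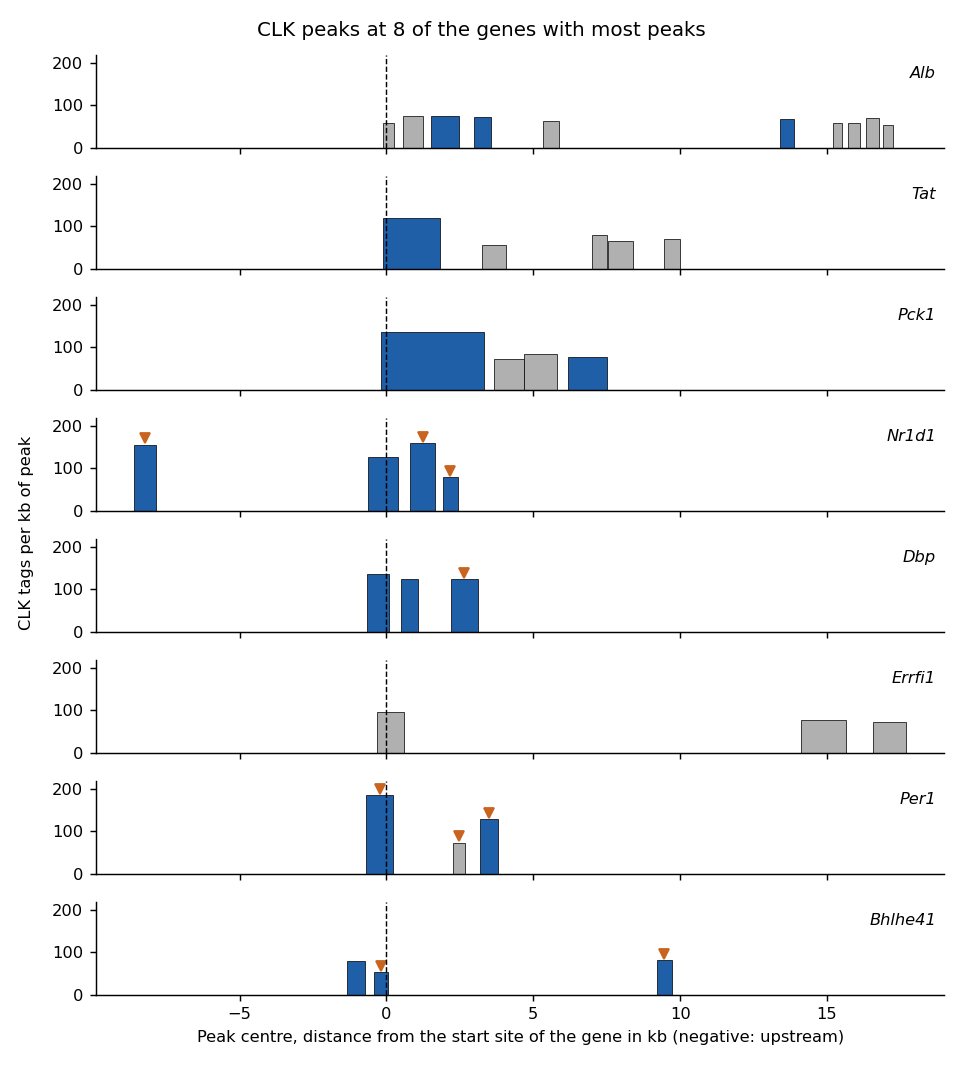
CLK peaks at 8 of the genes with most peaks, drawn to scale by distance from the gene's start site in kb (horizontal axis, negative upstream) and by CLK tags per kb (bar height). Bars are as wide as the peak, blue where a BMAL1 peak overlaps and grey where none does, and a triangle marks an e-box within 100 bp of the summit. The 10 Alb peaks are of like height between 54.4 and 74.9 and carry no triangle, and the Nr1d1, Dbp, Per1 and Bhlhe41 bars are mostly blue and reach 186 tags per kb.

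CLK peaks lay mostly away from start sites. The deposited annotation placed 333 of 759 peaks inside a gene (43.9%, 40.3 to 47.5%). Of all peaks 129 (17.0%, 14.4 to 19.9%) had their centre within 1 kb of a start site, 77 of them upstream and 52 downstream. The median distance was 20334.5 bp, and 142 peaks lay beyond 100 kb. By GENCODE M1, 305 summits lay in introns, 37 in coding exons, 39 in UTRs, 20 in non-coding exons and 358 between genes. The features of the peaks changed step by step with distance. A BMAL1 peak overlapped 57.4% of the 129 peaks within 1 kb, 35.4% of the 147 between 1 and 10 kb, 24.6% of the 240 between 10 and 50 kb, 15.3% of the 98 between 50 and 100 kb and 7.75% of the 142 farther away. The e-box share over the same bands was 45.7%, 30.6%, 23.3%, 12.2% and 7.04%, and the median number of tags 34, 27, 23, 21 and 20. The peaks assigned to Gapdh (23 tags) and H2afy2 (19 tags) lay on another chromosome than those genes, and the start site given for AK006293 (29 tags) lay beyond the end of the peak's chromosome. These 3 peaks were left out of distances and of the lists, which leaves 756.

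The e-box CACGTG, which reads the same on both strands, lay within 100 bp of the summit in 182 CLK peaks (23.98%, 20.98 to 27.18%). The stretches 400 to 500 bp on either side of the summits held it in 3.16% of peaks (2.04 to 4.67%), and 201-bp windows centred on 22339 coding start sites in 5.56%. The nearest e-box was a median of 21 bp from the summit, and in 112 of the 182 peaks it was within 25 bp. One e-box was found in 137 peaks and 2 or more in 45, with up to 5 in a window. Median tags were 22, 31 and 40 in peaks with 0, 1 and 2 or more e-boxes, and median fold 6.35, 6.75 and 7.81. Peaks that overlapped a BMAL1 peak held an e-box in 59.2% and the others in 10.4% of cases. The latter value was still above the 1.10% of the flanks of the same peaks (0.403 to 2.37%, against 7.97 to 13.3% at the summits).

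Other motifs of liver and clock factors, searched on both strands, were read in the same windows. CACGTT was present in 8.70% of summit windows (6.79 to 10.9%) and 1.71% of flanks (0.915 to 2.91%). TTATGTAA, which the DBP and E4BP4 family binds, was in 18 summit windows (2.37%, 1.41 to 3.72%) and 6 flanks (0.791%, 0.291 to 1.71%), and 14 of the 18 were CLK:BMAL1 peaks. AGGTCA, the core site of nuclear receptors, was in 17.9% (15.3 to 20.8%) and 11.5% (9.28 to 14.0%). For TGTTTAC, a FOXA motif, the values were 3.56% and 3.16%, with overlapping intervals. GTTAAT, the core of HNF1 sites, was less frequent at summits (2.64%, 1.62 to 4.04%) than in flanks (6.59%, 4.93 to 8.59%), and GGGCGG, the GC box, more frequent (14.5% against 8.43%). At start sites 40.0% of windows held GGGCGG, 8.90% AGGTCA, 3.21% CACGTT, 3.33% GTTAAT, 1.61% TGTTTAC and 0.501% TTATGTAA. The C/EBP palindrome TTGCGCAA was found at 1 summit, in no flank and in 0.130% of start site windows. GC content differs between these kinds of window, and its part in the motif shares was not tested.

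The CLK:BMAL1 peaks were read from both libraries of the same extract, at 210 sites (1 BMAL1 peak covered 2 Nr1d1 CLK peaks). Tags were given as RPM, tags per 1000000 tags at distinct positions of the same library. The CLK value was a median 0.645 of the BMAL1 value (95% interval 0.595 to 0.685, range 0.260 to 2.01), and at 26 of the 210 sites it was the higher. The sites where CLK was higher included Pck1 (14.4 against 10.5 RPM), Tat (6.99 against 4.92) and the Alb peak with most tags (2.15 against 1.07). CLK was the lower at most sites of clock genes, with 8.11 against 15.2 at Nr1d1 and 6.23 against 11.3 at Gm129. The 23 sites at genes of the clock lists had a median ratio of 0.452 (0.389 to 0.549) and CLK was higher at 3 of them, and the 14 at plasma protein, glucose and amino acid genes had 0.838 (0.509 to 1.42) with CLK higher at 6. These intervals overlap. Sites with and without an e-box had ratios of 0.662 (0.604 to 0.712) and 0.610 (0.535 to 0.694). The ratio also carries the efficiency of each antibody and the width called in each library, and per kb of peak the median was 0.819.

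**Figure D4:**
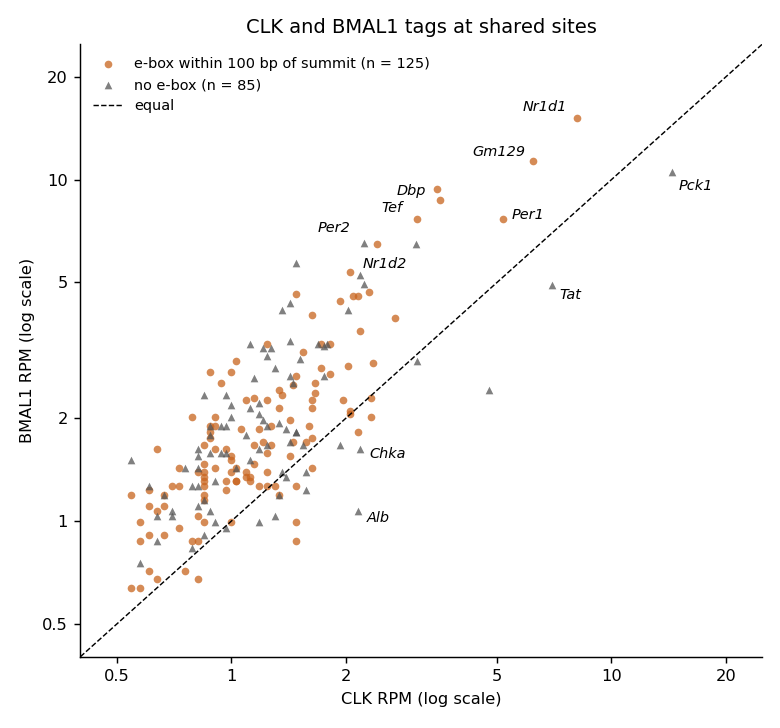
CLK RPM (horizontal axis, log scale) against BMAL1 RPM (vertical axis, log scale) at the 210 shared sites, by presence of an e-box near the CLK summit. The dashed line marks equal values. Most sites lie above the line, including Nr1d1, Gm129, Dbp and Tef, and 26 lie below it, including Pck1, Tat, Chka and Alb.

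Target genes were then read by function, from 22 lists of gene symbols. Of the 22238 protein-coding genes of GENCODE M1, 535 (2.41%) had at least 1 CLK peak, which is the background for the list shares. The lists together held 4261 genes, of which 125 had a CLK peak, and took 163 peaks (21.5%) and 32.8% of tags. A function list therefore described a minority of CLK peaks.

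**Figure D5:**
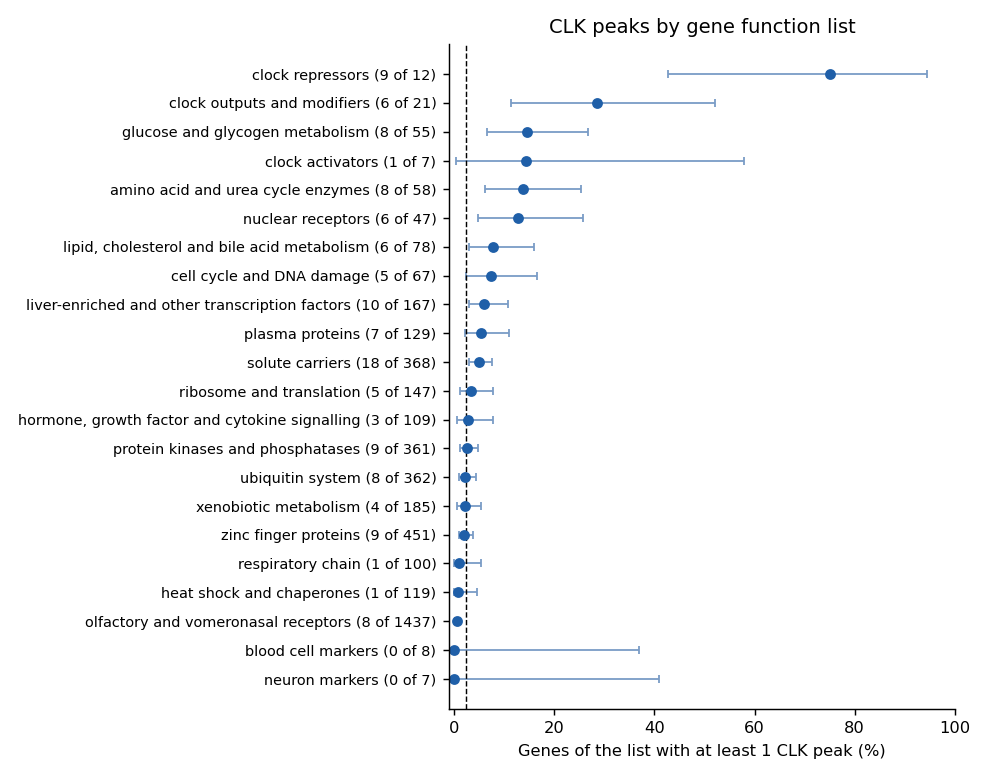
Share of the genes of each function list with at least 1 CLK peak (horizontal axis, %), with exact 95% intervals as bars and the number of genes beside each name. The dashed line marks the 2.41% of all coding genes. Clock repressors stand at 75%, glucose and amino acid enzymes at 14.5% and 13.8%, and olfactory and vomeronasal receptors at 0.557%.

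The repressors of the clock were the list with the highest share. Of 12 genes 9 had a CLK peak (75%, 42.8 to 94.5%), and the 9 genes had 17 peaks with 1366 tags and a median fold of 9.88. All 9 had a BMAL1 peak at the same place, beside 0.724% of coding genes, and 8 had a CLK peak within 1 kb of the start site, beside 0.468%. In order of summed tags they were Nr1d1 (424 tags, 4 peaks), Per1 (280, 3 peaks), Gm129 (206), Bhlhe41 (117, 3 peaks), Cry2 (113, 2 peaks), Nr1d2 (80), Per2 (74), Per3 (38) and Cry1 (34). The levels of tags in this order are not levels of expression. Nr1d2, the gene of REV-ERBβ, held 3 e-boxes within 100 bp of its summit, and the Cry1 peak, 28 bp upstream of the start site, held 1. The Per2 peak, 145 bp upstream of the start site, and the Per3 peak, 105 bp upstream, held neither CACGTG nor CACGTT in this window. The Cry2 peak with a BMAL1 peak was in an intron 10162 bp from the start site (68 tags, 2 e-boxes).

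Among the outputs and modifiers of the clock 6 of 21 genes had a CLK peak (28.6%, 11.3 to 52.2%). They included the 3 PAR bZIP transcription factors, Dbp (292 tags), Tef (135 tags, 2 peaks) and Hlf (64 tags, 27288 bp upstream). The others were Alas1, the first enzyme of heme synthesis (145 tags, 2 peaks), Klf15, a regulator of amino acid use in fasting (77 tags), and Wee1, a cell cycle kinase (39 tags). All 6 had a CLK peak that overlapped a BMAL1 peak. Of the clock activators, only Rora of 7 genes had a peak (26 tags, 6.76-fold), in an intron 47835 bp from the start site and with no BMAL1 peak. Over these 3 lists, 24 of 28 CLK peaks overlapped a BMAL1 peak and 17 held an e-box.

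Enzymes of glucose and glycogen metabolism had a CLK peak in 8 of 55 genes (14.5%, 6.50 to 26.7%), with 1324 tags in 14 peaks. Pck1 had 743 tags and G6pc, the glucose-6-phosphatase that releases glucose from the liver, 129. No peak of Pck1 or G6pc held an e-box within 100 bp, and neither G6pc peak overlapped a BMAL1 peak. Both peaks of Gys2, the liver glycogen synthase (41 and 48 tags), overlapped a BMAL1 peak and held 2 e-boxes each, and Ppp1r3c (36 tags) and Gbe1 (19 tags) also had both features. The glycogen phosphorylase gene Pygl (54 tags) had neither. Pfkfb3 (55 tags, 33535 bp from the start site) had a BMAL1 peak and 2 e-boxes.

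Enzymes of amino acid metabolism and the urea cycle had a CLK peak in 8 of 58 genes (13.8%, 6.15 to 25.4%). Tat held 407 of their 667 tags. Gnmt, which takes methyl groups from S-adenosylmethionine, had 72 tags at an e-box 233 bp from the start site, at a low fold of 3.73 and with no BMAL1 peak. Cps1, the first enzyme of the urea cycle, had 39 tags 97 bp from the start site, and Ahcy 31 tags. Of the 12 peaks 3 overlapped a BMAL1 peak and 2 held an e-box.

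Genes of plasma proteins, which mark hepatocytes and are among the most transcribed genes of the liver, had a CLK peak in 7 of 129 cases (5.43%, 2.21 to 10.9%). This interval includes the 2.41% of all coding genes. The 7 genes held many tags (951) in 16 peaks at a median fold of 5.82. Besides Alb (345 tags), Apoa1 (200) and Trf (173), Serpina3k had 125 tags in 1 peak of 1306 bp. The Serpina3 genes are close copies of each other, so uniquely mapped tags may be split between them or lost. Only Alb of the 7 genes had a peak with BMAL1, and only the Apoa5 peak (45 tags, 73 bp from the start site) held an e-box. No value of transcription was used here, and its part in these tags was not tested.

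Lipid genes had a CLK peak in 6 of 78 cases (7.69%, 2.88 to 16.0%). Thrsp, a nuclear protein of lipogenic tissues, led with 172 tags in 2 peaks, neither with BMAL1 nor with an e-box, although its main peak had 143 tags at 9.01-fold. Chka (72 tags) and the triglyceride enzyme gene Dgat2 (41 tags, an e-box, 336 bp upstream of the start site) had a BMAL1 peak, and the fatty acid binding protein gene Fabp1 (45 tags, 3.82-fold) did not. Genes of drug and xenobiotic metabolism were near the background, 4 of 185 (2.16%, 0.592 to 5.44%). Por, the reductase that passes electrons to all microsomal cytochrome P450 enzymes, had 65 tags in a narrow peak of 360 bp at 10.3-fold with an e-box, and Cyp2u1 (32 tags), the transporter gene Abcc2 (28 tags) and Fmo5 (22 tags) followed.

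Nuclear receptor genes had a CLK peak in 6 of 47 cases (12.8%, 4.83 to 25.7%), among them Nr1d1, Nr1d2, Rora and Hnf4a (32 tags in an intron, with BMAL1). Liver-enriched and other transcription factors had one in 10 of 167 cases (5.99%, 2.91 to 10.7%). This list shares Hnf4a with the nuclear receptors and Klf15 with the clock outputs. Klf13 had 99 tags in 2 peaks, Klf15 77, Foxo3 47 and Junb 40, and each of these 4 had a peak that overlapped a BMAL1 peak. Cell cycle genes had one in 5 of 67 cases (7.46%, 2.47 to 16.6%), led by Ccne1 (81 tags, 2 peaks), Mcm10 (44), Ccnd1 (42) and Gadd45g (41). The solute carriers had one in 18 of 368 cases (4.89%, 2.92 to 7.62%), with Slc25a25 (108 tags), Slc27a2 (67), Slc2a5, a fructose carrier (54), and Slc45a1 (40) at the top. The last 2 lists depended on distant peaks. With peaks inside the gene or within 10 kb of its start site, 10 solute carriers and 3 cell cycle genes remained, beside 1.65% of coding genes. Within 1 kb of the start site 3 solute carriers had a peak, and 2 had one with a score of at least 100.

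The remaining lists lay near or below the background. Ribosome and translation genes had a peak in 5 of 147 cases (3.40%, 1.11 to 7.76%), with Eif4g1 (68 tags), Eef2k (38), Eif3e (19) and Rps15a (19) first. Signalling genes had one in 3 of 109 (2.75%), namely Tgfbr3, Tgfbr2 and Tnfrsf19 with 21 to 22 tags. Kinases and phosphatases had one in 9 of 361 (2.49%), with Cdk8 (266 tags), Rps6ka1 (47), Dusp10 (41) and Ppp1r3c (36) first. The Cdk8 peak is among the 5 of high density and low fold named above. The Dusp10 peaks lay 222813 and 258766 bp from its start site. The ubiquitin system had one in 8 of 362 (2.21%), and its 4 genes with most tags, Usp36 (60), Fbxl22 (57), Usp28 (34) and Rnf145 (29), all had a BMAL1 peak and an e-box. Zinc finger genes had one in 9 of 451 (2.00%), with Zfp36 (51 tags), Zfp407 (29), Zbtb38 (24) and Zfp236 (23) first. Respiratory chain genes had one in 1 of 100 (Ndufa6, 47 tags) and chaperones in 1 of 119 (Dnajc11, 23 tags).

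As a floor for the assignment by nearest gene, the receptor genes of smell and markers of neurons and blood cells were read. Their expression in these livers was not read, and other cells were not separated from hepatocytes. Olfactory and vomeronasal receptor genes had a CLK peak in 8 of 1437 cases (0.557%, 0.241 to 1.09%), below the background. Among the shortest of 4 groups of coding genes by length, 0.756% had one, which lies inside this interval. The part of gene length in the share of the receptor genes was not tested. Their peaks held 18 to 57 tags, all had a score under 100, and 1 of 8 genes had a BMAL1 peak (Olfr1344, 57 tags, 39 bp from the start site and within an intron of Gm16532). Olfr541 (63 tags, 2 peaks), Olfr464 (27) and Olfr544 (26) had none. Neuron markers had a peak in 0 of 7 genes (upper limit 41.0%) and blood cell markers in 0 of 8 (upper limit 36.9%), which are too few genes to set a low limit.

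Gene length moved with these shares. Of 4 groups of coding genes by length, 0.756% of the shortest had a CLK peak and 5.02% of the longest, where any peak inside a gene counts for that gene. For peaks within 1 kb of the start site these groups were at 0.270% and 0.486%. By this narrower count 8 of 12 clock repressors, 3 of 55 glucose genes, 4 of 58 amino acid genes and 5 of 129 plasma protein genes had a CLK peak, beside 0.468% of all coding genes. With peaks inside the gene or within 10 kb of its start site, the counts were 9, 7, 8 and 7 for the same 4 lists, beside 1.65% of coding genes. With a score of at least 100, 94 peaks (12.4%) and 71 coding genes (0.319%) remained, among them 7 of the 12 clock repressors, 5 of the glucose, 2 of the amino acid and 4 of the plasma protein genes and none of the olfactory receptors.

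Many peaks lay near the cutoff of the caller, a score of 50. The lowest score, 50.01, was shared by more than 3 peaks. The 3 taken from this tie had 24 tags each. They were assigned to Gtl3 (5.54-fold), Olfr770 (5.12-fold) and the transcript uc008pvm.1 (4.20-fold), with no BMAL1 peak and no e-box. A peak at Thsd7b had the same score (24 tags, 5.51-fold). Peaks just outside the cutoff are not in the list.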

How the data were processed

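Livers were sampled at ZT8, with 1 CLK ChIP library, 1 BMAL1 ChIP library and 1 Input library from the same extract. The libraries went through 15 cycles of PCR and were read at 36 nt. The authors aligned these reads to mm9 with Bowtie (the submitters' processing notes also name CASAVA 1.6), kept uniquely mapped reads and ran MACS on either ChIP library with Input as control. Depths are those of the MACS headers. Per the file headers, MACS used an effective genome size of 1890000000 bp, a p-value cutoff of 1e-05, a model fold of 5, a band width of 80 and local windows of 1000, 5000 and 10000 bp. The deposited tags are counts of reads in each peak. The deposited score is MACS's −10 log10 of the p-value, the deposited fold is the ratio to local Input, and the deposited FDR is a percent. Peaks within a gene carry that gene's name in the authors' table, and peaks between genes the name of the closest start site. The deposited distance in bp was the start site minus the peak centre without regard to strand (759 of 759 peaks within 2 bp), and was turned by strand here.

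Widths, densities, overlaps of at least 1 bp with BMAL1 peaks, e-boxes and other motifs within 100 bp of the MACS summit, distances, peaks per gene and list counts were computed in Python 3.11.15 with pandas 2.3.3, numpy 2.4.6, scipy 1.17.1 and pysam 0.24.0. Rank groups were formed by value, with ties in file order. Sequence came from NCBIM37 and features from GENCODE M1. Shares carry Clopper-Pearson and tags exact Poisson intervals, medians order-statistic intervals. Overlap, motif and interval code was tested on simulated data. With 1 library per group no test between groups was made. Alternatives were an FDR of at most 5%, a score of at least 100, other windows, distances and overlap rules, and 1 peak per gene. The members and gene lists were chosen with earlier results of these data known. Named were the 12 peaks with most tags, the 10 genes with most peaks, the 5 widest peaks and all clock genes with a peak. Also named were up to 4 genes with most tags per other list, and 3 of the peaks tied next to the cutoff. Other peaks were named after their values were seen, and 1 gene that the rule names is not reported here.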

Additional observations from a re-analysis of the deposited data

How the results depend on the processing

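No paired analysis was possible because each group has 1 library, and for the same reason no library could be left out. Of 31 alternative values of the main quantities, 8 moved by less than the counting interval, or less than 1.5 times for a count, and 23 moved by more. With a score of at least 100 (94 peaks) the median peak had 60 tags, a width of 567 bp and a fold of 9.15; 27.7% of peaks lay within 1 kb of a start site, 58.5% inside a gene, 46.8% had an e-box and 72.3% a BMAL1 peak, 10.8% of genes had 2 or more peaks, and 35 listed genes had a peak. With an FDR of at most 5% (162 peaks) these values were 30.5 tags, 446 bp, 6.90-fold, 23.5%, 38.9%, 29.6%, 43.2% and 3.25%, and the 10 peaks with most tags held 29.8% of tags. The FDR cutoff thus moved the share inside a gene and the share of genes with 2 or more peaks the other way than the score. The deposited FDR did not follow the score throughout. Its cutoff kept the first Per1 peak (score 701.4, FDR 0%) and the Axin2 peak (score 70.5, FDR 4.67%). It dropped the Per2 peak (score 194.4, FDR 12%) and the 3 Dbp peaks (FDR 7.69 to 13.04%), so it is not simply a stricter set. Within 5 kb of a start site lay 26.4% of peaks. An e-box lay within 50 bp of the summit in 19.2%, and with 1 mismatch within 100 bp in 72.2%. The share with 1 mismatch has no flank or start site value beside it, so it is not read as enrichment. Per kb of peak the median was 61.7 tags, and the CLK to BMAL1 ratio at shared sites 0.819, an alternative chosen after seeing the data. Centring on the peak, 1 peak per gene, a required overlap of 50% and peaks inside or within 10 kb of the gene left their values within those limits. Of the 20 lists with a peak, 16 kept a count within 1.5 times when peaks had to lie inside or within 10 kb of the gene, and 2 did with a score of at least 100. The 4 lists that moved with the 10 kb limit were solute carriers, cell cycle, ribosome and translation, and olfactory and vomeronasal receptors.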
